A study of Rattus norvegicus with 9 samples.

Results

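Mast cells and basophils are rare granule-filled cells that carry immunoglobulin E (IgE) on their surface. Their transcripts were followed through 8 genes in femurs of male rats taken 7 days after surgery. The rule named 10 genes by symbol, and 8 of them had a row in the deposited table of 31125 genes, namely Mcpt10, Mcpt1, Cpa3, Tpsab1, Tpsb2, Ms4a2, Fcer1a and Hdc. No row carried the symbols Mcpt2 and Mcpt8, which were not analysed here. All 8 genes passed the filter on low counts, which left 15936 genes to test. The 3 groups held 3 libraries each. Femurs had sham surgery (Sham), an injury to the growth plate at the distal end (GPI), or that injury treated with the GMTT hydrogel (GMTT), whose growth plate the labels call intact. The hydrogel is named in the series title as GelMA (methacrylated gelatin), TPGS and tea polyphenols. The labels give no strain or age, nor whether rats were pooled into a library. The p-values therefore cover only how the 3 libraries of a group vary.

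Both cell types arise from marrow progenitors that depend on the transcription factor GATA2. Basophils complete their growth in the marrow and circulate, whereas mast cells finish theirs in the tissue under stem cell factor and its receptor KIT. The granules hold serine proteases of the chymase and tryptase families, carboxypeptidase A3 and histamine, and crosslinking of IgE on its receptor empties them. In rodents, connective tissue mast cells are known for tryptases, chymase and carboxypeptidase A3, mucosal mast cells for another chymase, and basophils for the proteases encoded by Mcpt8 and Prss34.

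Symbols in the chymase family need care, because the deposited table pairs each gene with its best Swiss-Prot protein and the pairs cross. The row named Mcpt10 (ENSRNOG00000068082, mRatBN7.2 chromosome 15, 29915483 to 29918511) is paired with MCPT8_RAT, the protein of the basophil protease. The row named Mcpt1 (ENSRNOG00000020625, chromosome 15, 29871335 to 29873926) is paired with MCPT2_RAT, the mucosal mast cell chymase. MCPT1_RAT, the connective tissue chymase, is paired with the neighbouring rows Mcpt1l1, Mcpt1l2, Mcpt1l3 and Mcpt1l4. GRZ2_RAT, whose gene name there is Mcpt10, is paired with a row named Mcpt9. Some annotated spans also overlap on the same strand, as Mcpt1 does with Mcpt1l3 and Mcpt1l4 (both 29532079 to 29873922), and Mcpt1l2 with Mcpt9. Rows are called below by the symbol in the table. How reads were shared out among these similar and partly overlapping genes is not given in the sources used here. The other 6 genes were paired with the protein their symbol stands for: Cpa3 (chromosome 2, 102712589 to 102744203), Tpsab1 (chromosome 10, 14360396 to 14362811), Tpsb2 (chromosome 10, 14382013 to 14383569), Ms4a2 (chromosome 1, 208440361 to 208448310), Fcer1a (chromosome 13, 85686092 to 85692351) and Hdc (chromosome 3, 113847260 to 113865341). All 8 are annotated as protein-coding.

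The promoters of Cpa3, Tpsab1 and Tpsb2 are shown, 3 granule genes with the highest mean levels per gene length of the 8 in GPI. They stand beside that of Prss34, the basophil protease gene that parted most from Mcpt10. Each runs from 250 bases before to 50 after the annotated start, 5′ to 3′ on the gene's strand, from RefSeq on GRCr8, a later build than that of the counts. Capitals mark GATAA, the core of GATA factor sites, on either strand, where its reverse complement reads TTATC. Their positions are chr2:104673188-104673487 (minus strand) for Cpa3, chr10:14867253-14867552 (minus) for Tpsab1, chr10:14886060-14886359 (plus) for Tpsb2 and chr10:14820197-14820496 (plus) for Prss34.
Cpa3: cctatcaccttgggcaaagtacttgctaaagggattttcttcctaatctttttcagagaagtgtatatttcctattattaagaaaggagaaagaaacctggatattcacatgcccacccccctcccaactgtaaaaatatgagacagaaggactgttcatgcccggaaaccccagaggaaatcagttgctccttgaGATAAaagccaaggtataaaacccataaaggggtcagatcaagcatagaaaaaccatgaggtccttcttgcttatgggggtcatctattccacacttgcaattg
Tpsab1: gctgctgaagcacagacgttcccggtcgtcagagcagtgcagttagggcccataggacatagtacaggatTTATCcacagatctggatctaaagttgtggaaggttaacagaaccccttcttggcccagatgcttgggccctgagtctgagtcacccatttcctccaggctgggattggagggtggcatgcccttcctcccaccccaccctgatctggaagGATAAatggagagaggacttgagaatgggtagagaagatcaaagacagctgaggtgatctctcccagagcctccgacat
Tpsb2: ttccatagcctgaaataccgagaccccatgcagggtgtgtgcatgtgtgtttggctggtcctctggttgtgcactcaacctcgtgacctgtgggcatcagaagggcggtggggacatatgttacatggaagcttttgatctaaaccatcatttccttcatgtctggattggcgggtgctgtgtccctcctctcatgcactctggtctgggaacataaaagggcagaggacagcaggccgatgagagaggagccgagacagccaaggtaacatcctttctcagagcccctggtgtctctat
Prss34: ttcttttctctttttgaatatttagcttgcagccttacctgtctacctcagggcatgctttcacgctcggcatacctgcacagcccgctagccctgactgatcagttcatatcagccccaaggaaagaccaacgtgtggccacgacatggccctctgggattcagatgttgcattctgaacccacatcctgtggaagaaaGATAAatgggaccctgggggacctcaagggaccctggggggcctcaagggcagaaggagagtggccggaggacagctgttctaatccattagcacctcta

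The Cpa3 and Prss34 windows held 1 match each, that of Tpsab1 held 2, and that of Tpsb2 held none. Promoters were found by symbol for 7 of the 10 symbols. These include Mcpt8, which had no row in the counts, and lack Mcpt2, Mcpt10 and Ms4a2. Of the 7, 4 (Mcpt1, Cpa3, Tpsab1 and Fcer1a) held at least 1 match, against 26.5% of all 33469 promoter windows of this length. Whether the chymase symbols name the same genes on both builds was not tested. A match describes the letters only.

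The libraries held 15927429 to 19715997 counts and differed widely in tissue makeup between groups. The 6 bone genes tracked took 0.654% to 0.706% of counts in Sham, 0.326% to 0.344% in GPI and 0.897% to 0.983% of GMTT counts. The 8 skeletal muscle genes took 0.177% to 0.192%, 7.53% to 7.92% and 1.71% to 1.83%, in the same order. Marker lists of other blood cells also differed between the groups and were lowest in GPI. The 11 neutrophil and precursor genes took 1.09% to 1.17% of counts in Sham, 0.000532% to 0.000649% in GPI and 1.30% to 1.36% of GMTT counts. The 7 eosinophil genes took 0.561% to 0.587%, 0.000903% to 0.000982% and 0.251% to 0.264%, with Il5ra at 0 in every GPI library. The 10 erythroid genes took 1.87% to 1.90%, 0.117% to 0.121% and 1.05% to 1.08%, and 16 general leukocyte genes 0.476% to 0.490%, 0.00971% to 0.01% and 0.531% to 0.547%. How far these shifts enter the values below was not tested, and in whole tissue fewer cells of a type and less RNA per cell cannot be told apart.

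The 8 genes together took 0.0255% to 0.0274% of counts in Sham, 0.000527% to 0.000641% in GPI and 0.0465% to 0.0503% of GMTT counts. The order of the genes can be read per length from the deposited FPKM, a level scaled to gene length and to 1 constant per library. In Sham, Mcpt10 stood highest at 104 ± 3.87 FPKM, followed by Ms4a2 at 17.8 ± 1.82 (SD, n = 3). Cpa3 at 8.26 ± 0.497 and Hdc at 7.56 ± 0.277 came next and overlapped, then Mcpt1 at 5.53 ± 0.0568. Fcer1a at 3.03 ± 0.334, Tpsab1 at 2.26 ± 0.140 and Tpsb2 at 2.10 ± 0.106 were lowest, the last pair within their spread of each other. In GPI this order was turned over. Cpa3 at 2.36 ± 0.646, Tpsb2 at 1.65 ± 0.258 and Tpsab1 at 1.26 ± 0.388 FPKM then had the highest means, and Mcpt10 at 0.0262 ± 0.0454 the lowest. Their libraries overlapped: Cpa3 with Tpsb2, Tpsb2 with Tpsab1, Tpsab1 with Hdc (0.805 ± 0.246), and Mcpt10 with Mcpt1. In GMTT, Mcpt10 led again at 255 ± 11.1 FPKM, with Ms4a2 at 18.7 ± 2.16 and Hdc at 12.9 ± 0.590 behind it.

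**Figure D1:**
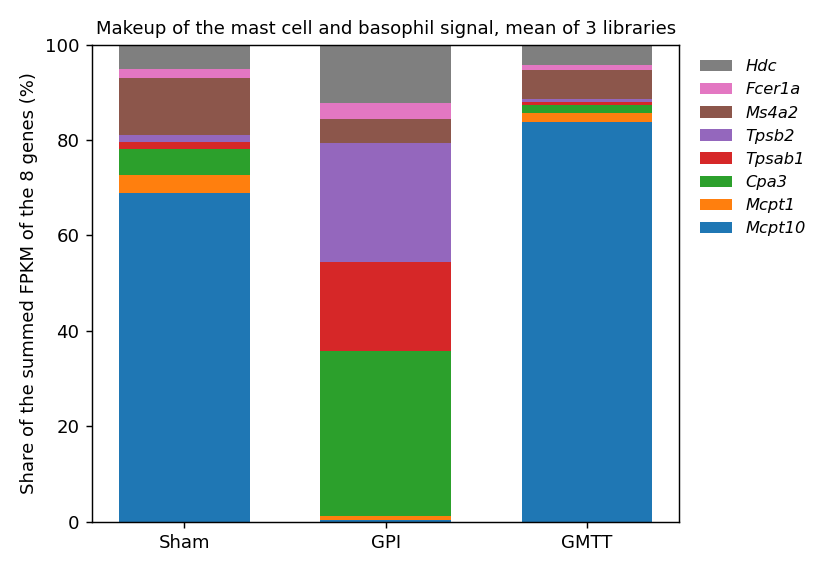
Share of the summed FPKM of the 8 genes held by each gene, as the mean of 3 libraries per group (vertical axis in percent, groups on the horizontal axis). Mcpt10 held 69.0% in Sham, 0.393% in GPI and 83.7% in GMTT, while Cpa3, Tpsab1 and Tpsb2 held 34.5%, 18.6% and 24.9% in GPI.

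The comparison of GPI with Sham sets injured beside sham-operated femurs at day 7, in groups that also differed in tissue makeup. The granule protease genes Mcpt10 and Mcpt1 were nearly lost in GPI, whereas the tryptase genes and Cpa3 changed least on the TMM scale; with leukocyte scaling, Ms4a2, Fcer1a and Mcpt1 changed least. Values are CPM, counts divided by library depth, where the depth was scaled between libraries by the trimmed mean of M-values (TMM). In the quasi-likelihood test of edgeR, with Benjamini-Hochberg adjusted p-values called below 0.05, 7 of the 8 genes were lower on this scale, against 48.1% of all genes tested. None was higher, against 40.1%, and 88.2% of all genes were called in either direction. With scaling to the 16 leukocyte genes, which themselves fell, 1 gene (Mcpt10) was called lower and 5 higher, against 3.55% and 90% of all genes, whose median there was 4.91. The median log2 fold change of the 8 genes was -3.47, against -0.19 over all genes. The 3 GPI libraries lay below the 3 Sham libraries for 8 of 8 genes, as groups did not overlap for 88.3% of all genes.

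**Figure D2:**
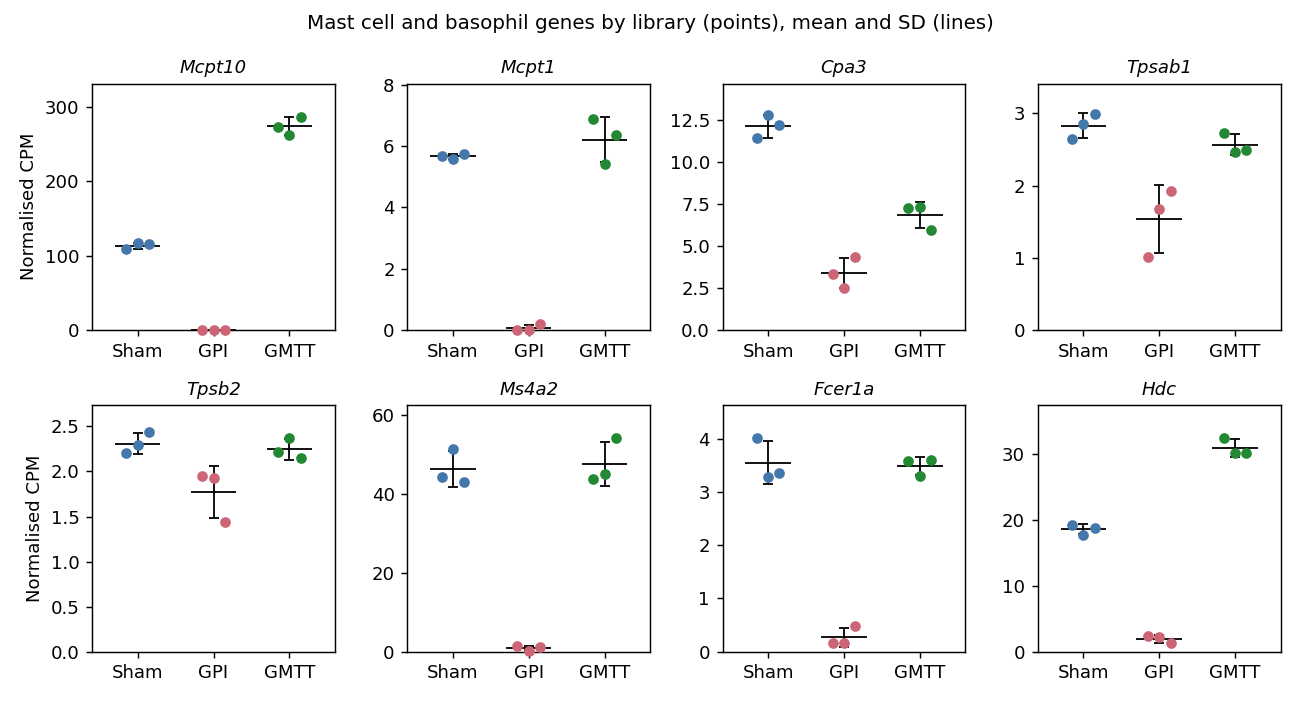
Normalised CPM of each gene in the 9 libraries (points), with the group mean and SD (black lines) and a separate axis from 0 for each gene. GPI libraries lie near 0 for Mcpt10, Mcpt1, Ms4a2 and Fcer1a, while those of Tpsb2 lie between 1.44 and 1.95 CPM, just under Sham; the order of GPI and Sham is that of the TMM scale and reverses with leukocyte scaling for Cpa3, Tpsab1, Tpsb2, Fcer1a and Hdc.

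Among the proteases, Mcpt10 measured 109, 117 and 115 normalised CPM in the Sham libraries and 0.0846, 0 and 0 in GPI. A single read in 1 GPI library stood against 7425 in Sham, which gives a ratio of 3878 (95% counting interval 696 to 153207; adjusted p = 2.06e-32, edgeR). Mcpt1 measured 5.67, 5.58 and 5.74 CPM in Sham and 0, 0 and 0.193 in GPI. Its 2 counts against 370 gave a ratio of 96.6 (counting interval 26.6 to 801, adjusted p = 1.01e-15, edgeR). The Mcpt1 call was lost at adjusted p = 0.101 (edgeR) with leukocyte scaling, where the log2 change was -1.49. That of Mcpt10 held, at -6.80. Counting intervals cover counting error only.

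Cpa3, which encodes the carboxypeptidase of mast cell granules, measured 11.4, 12.8 and 12.2 CPM in Sham and 3.30, 2.52 and 4.33 in GPI. It was lower by TMM, with a log2 fold change of -1.86 (SE 0.15, adjusted p = 4.22e-13, edgeR), and higher with leukocyte scaling, at 3.25. The tryptase gene Tpsab1 measured 2.64, 2.86 and 2.99 CPM in Sham and 1.02, 1.68 and 1.93 in GPI, and GPI replicate 1 was the lowest. Its change was -0.89 (SE 0.23, adjusted p = 0.000553, edgeR) by TMM and 4.21 with leukocyte scaling. The second tryptase gene, Tpsb2, measured 2.20, 2.29 and 2.44 CPM in Sham and 1.95, 1.93 and 1.44 in GPI. At -0.37 (SE 0.22, adjusted p = 0.107, edgeR) it was the 1 gene of the 8 not called, though it was called lower with library sizes only (-1.46) and on log2(FPKM + 1), and called higher with leukocyte scaling (4.73).

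The receptor genes Ms4a2 and Fcer1a encode the beta and alpha chains of the high-affinity IgE receptor. Ms4a2 measured 44.4, 51.5 and 43.0 CPM in Sham and 1.35, 0.252 and 1.06 in GPI, with GPI replicate 2 lowest at 3 counts. Its log2 fold change was -5.71 (SE 0.22, adjusted p = 1.09e-13, edgeR) by TMM. That call was lost with leukocyte scaling, at -0.61 (adjusted p = 0.164, edgeR). Fcer1a measured 4.01, 3.29 and 3.35 CPM in Sham and 0.169, 0.168 and 0.481 in GPI. It changed by -3.71 (SE 0.33, adjusted p = 3.58e-12, edgeR), which turned to 1.36 with leukocyte scaling. Hdc encodes histidine decarboxylase, the enzyme that makes histamine. It measured 19.2, 17.7 and 18.7 CPM in Sham and 2.37, 2.18 and 1.25 in GPI, a change of -3.23 (SE 0.14, adjusted p = 5.66e-20, edgeR) that turned to 1.87 with leukocyte scaling.

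A ratio within a library does not depend on how libraries are scaled. The summed counts of Cpa3, Tpsab1 and Tpsb2 were 0.366, 0.348 and 0.409 times those of Ms4a2 in Sham and 4.62, 24.3 and 7.27 times in GPI. The groups did not overlap, and the ratio was 25.0-fold higher in GPI (exact permutation test, 2-sided, p = 0.1, the smallest that 3 libraries against 3 allow; also 0.1 adjusted over the 3 ratios computed, which were chosen after the values were seen). The highest GPI ratio rests on the 3 Ms4a2 counts of replicate 2.

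The second comparison, GMTT with GPI, sets treated beside untreated injured femurs, which also differed in tissue makeup. It shares the GPI libraries with the first. By edgeR on the TMM scale, 7 of the 8 genes were higher in GMTT, against 45.7% of all genes tested. None was lower, against 40.2%, and 85.9% of all genes were called in either direction. With leukocyte scaling, 1 was higher and 5 lower, against 2.93% and 90.5% of all genes. The median log2 fold change was 3.83, against 0.12 over all genes. The groups did not overlap for 8 of 8 genes, as for 86.2% of all genes.

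Mcpt10 measured 273, 262 and 287 CPM in GMTT, or 18927 counts against 1 in GPI, a ratio of 9356 (counting interval 1679 to 369546, adjusted p = 1.44e-34, edgeR). Mcpt1 measured 6.87, 5.4 and 6.36 CPM, 429 counts against 2, a ratio of 106 (29.2 to 878, adjusted p = 3.45e-16, edgeR). The Mcpt1 call was lost with leukocyte scaling (1.51, adjusted p = 0.0946, edgeR), while Mcpt10 stood at 7.97.

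Ms4a2 measured 43.8, 45 and 54.1 CPM in GMTT, a log2 fold change of 5.75 (SE 0.22), which fell to 0.54 and was not called with leukocyte scaling. Hdc measured 32.4, 30.1 and 30.1 CPM and Fcer1a 3.58, 3.29 and 3.60 CPM. Their changes by TMM, 3.97 (SE 0.13) and 3.69 (SE 0.33), turned to -1.24 and -1.49 with leukocyte scaling. By TMM the smallest changes were again those of Cpa3 and the tryptase genes, whereas with leukocyte scaling Ms4a2 changed least. Cpa3 measured 7.25, 7.33 and 5.92 CPM, 1.03 higher by TMM (SE 0.16, adjusted p = 8.05e-07, edgeR) and -4.18 with leukocyte scaling. Tpsab1 measured 2.73, 2.46 and 2.50 CPM, 0.75 higher by TMM (SE 0.23, adjusted p = 0.00331, edgeR) and -4.46 with leukocyte scaling. Without GPI replicate 1 the Tpsab1 change was 0.51 (adjusted p = 0.0503, edgeR). Tpsb2 measured 2.22, 2.37 and 2.15 CPM and was not called by TMM (0.33, SE 0.22, adjusted p = 0.153, edgeR). It was called higher with library sizes only (1.43) and on log2(FPKM + 1) and log2(FPKM + 0.1), and lower with leukocyte scaling (-4.88).

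The third comparison, GMTT with Sham, asks where treated femurs stood apart from uninjured ones. Mcpt10 and Hdc were higher in GMTT, Cpa3 was lower, and the other 5 genes were not called. Thus 2 of 8 genes were higher, against 29.5% of all genes tested, and 1 was lower, against 28.3% (57.8% of all genes in either direction). The median was 0.01, against 0.00 over all genes. These 3 genes did not overlap between the groups, as 61.7% of all genes did not, and their calls and directions were the same with every scaling, filter and test tried and without any 1 library.

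Mcpt10 rose 2.41-fold, from 114 ± 3.95 to 274 ± 12.4 CPM (SD, n = 3), a log2 change of 1.27 (SE 0.05, adjusted p = 4.70e-20, edgeR). Hdc rose 1.67-fold, from 18.5 ± 0.749 to 30.9 ± 1.31 CPM, a change of 0.74 (SE 0.08, adjusted p = 6.68e-10, edgeR). Cpa3 fell from 12.1 ± 0.689 to 6.84 ± 0.793 CPM, a change of -0.83 (SE 0.11, adjusted p = 1.45e-07, edgeR). The IgE receptor genes Ms4a2 and Fcer1a were not called. Ms4a2 was 46.3 ± 4.54 CPM in Sham and 47.6 ± 5.66 in GMTT (log2 0.04, SE 0.10), and Fcer1a was 3.55 ± 0.399 and 3.49 ± 0.171 (-0.02, SE 0.15). Mcpt1 (0.13, SE 0.13), Tpsab1 (-0.14, SE 0.17) and Tpsb2 (-0.04, SE 0.17) overlapped between the groups as well; these standard errors do not show that the levels were equal. Beside these values, 6 of 7 eosinophil and 10 of 10 erythroid genes were lower in GMTT than in Sham, against 28.3% of all genes, with medians of -1.13 and -0.92. Of 10 tested neutrophil genes, 7 were higher, against 29.5% of all genes, with a median of 0.35. All 8 skeletal muscle genes and 7 of 8 cytotoxic lymphocyte genes were higher, with medians of 3.21 and 1.23. Their part in the changes of Mcpt10, Hdc and Cpa3 was not tested.

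**Figure D3:**
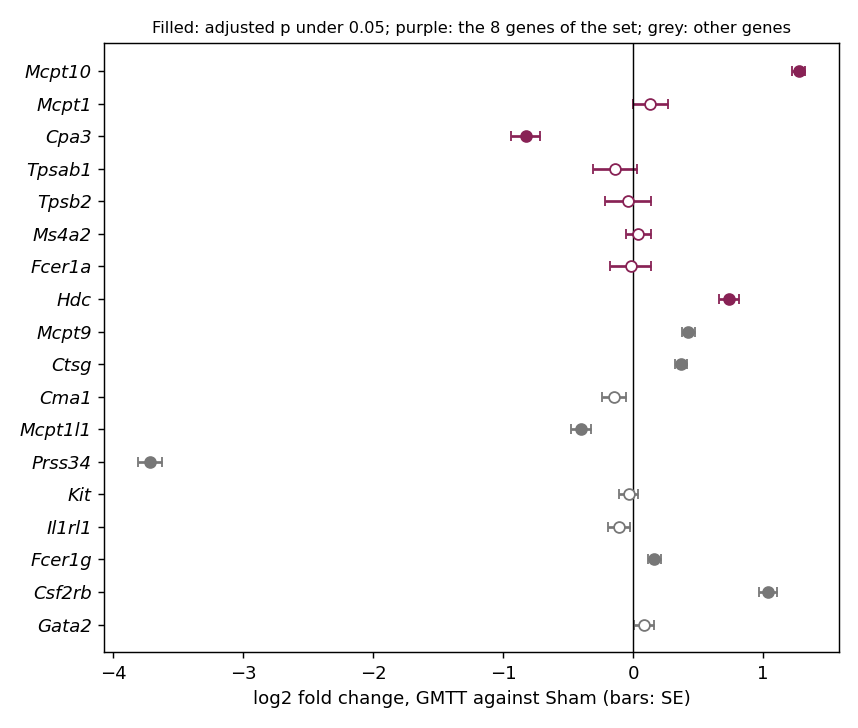
Log2 fold change of GMTT against Sham (horizontal axis) with its SE for the 8 genes (purple) and 10 other listed genes (grey). Some grey genes, such as Ctsg and Fcer1g, are also genes of other blood cells. Filled points have an adjusted p under 0.05. Mcpt10 lies at 1.27 and Prss34 at -3.72, while Ms4a2, Fcer1a, Kit and Gata2 lie within 0.1 of 0.

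Prss34 went the other way from Mcpt10. This tryptase-like protease of basophils (chromosome 10, 14315955 to 14317712) measured 56.3, 56.7 and 66.7 CPM in Sham, 0 in every GPI library and 3.97, 5.14 and 4.56 in GMTT. Its 3914 Sham counts were at least 681-fold higher than a floor of 3 counts over the GPI group, and the 314 in GMTT at least 51.7-fold higher. Between GMTT and Sham it fell by 3.72 on the log2 scale (SE 0.09, adjusted p = 2.57e-24, edgeR). The Mcpt10 counts were 1.94, 2.05 and 1.73 times those of Prss34 in Sham and 68.9, 51.1 and 62.9 times in GMTT, a 31.8-fold difference of the ratio without overlap (exact permutation test, 2-sided, p = 0.1, the smallest possible here).

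Mcpt10, Mcpt1 and 24 other rows with a symbol lie on chromosome 15 between 29417451 and 30346814, a cluster that holds chymases, cathepsin G and granzymes. Of these 26 rows, 12 had no count in any library, among them short rows without a paired protein, and 8 were tested. All 8 were lower in GPI libraries than in Sham on the TMM scale, against 48.1% of all genes tested. They were also all higher in GMTT than in GPI, against 45.7%. These directions turned for Cma1 and Mcpt1l1 with leukocyte scaling, where Gzmb, Mcpt1 and Mcpt1l2 were not called. The depth of the drop differed along the cluster. Mcpt9 measured 166, 168 and 171 CPM in Sham and 0.169, 0 and 0.193 in GPI. Ctsg, the cathepsin G gene of neutrophil precursors, measured 331, 358 and 360 CPM in Sham and 0.338, 0.252 and 0.289 in GPI. Their log2 changes were -10.41 (SE 0.15) and -10.19 (SE 0.12).

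Mcpt1l1, the row paired with the connective tissue chymase, kept far more of its level. It measured 21.3, 23.0 and 22.2 CPM in Sham and 6.77, 8.23 and 7.89 in GPI, a change of -1.54 (SE 0.10, 3.56 with leukocyte scaling). The mast cell chymase gene Cma1 measured 13.2, 13.7 and 16 CPM in Sham and 1.86, 1.76 and 1.64 in GPI, a change of -3.02 (SE 0.16, 2.08 with leukocyte scaling). Gzmb, granzyme B of cytotoxic cells, had 1 count in GPI and 118 in Sham. The 8 cytotoxic lymphocyte genes, Gzmb among them, took 0.00968% to 0.00990% of counts in Sham, 4.07e-05% to 6.36e-05% in GPI and 0.0120% to 0.0133% in GMTT. Of these counts, Nkg7 alone held 4541 in Sham and 3 in GPI. By TMM, 5 of the 8 were lower in GPI than in Sham, against 48.1% of all genes tested, and 3 were not called.

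Between GMTT and Sham, the neighbours of Mcpt10 moved less than it did. Mcpt9 was 0.42 higher (SE 0.05, adjusted p = 1.41e-08, edgeR), a call lost on log2(FPKM + 0.1), and Ctsg 0.37 higher (SE 0.05, adjusted p = 3.11e-08, edgeR). Mcpt1l1 was lower, at -0.40 (SE 0.08, adjusted p = 6.53e-05, edgeR). Mcpt10 counts were 0.658, 0.693 and 0.673 times those of Mcpt9 in Sham and 1.18, 1.22 and 1.24 times in GMTT, which did not overlap (exact permutation test, 2-sided, p = 0.1, the smallest possible).

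**Figure D4:**
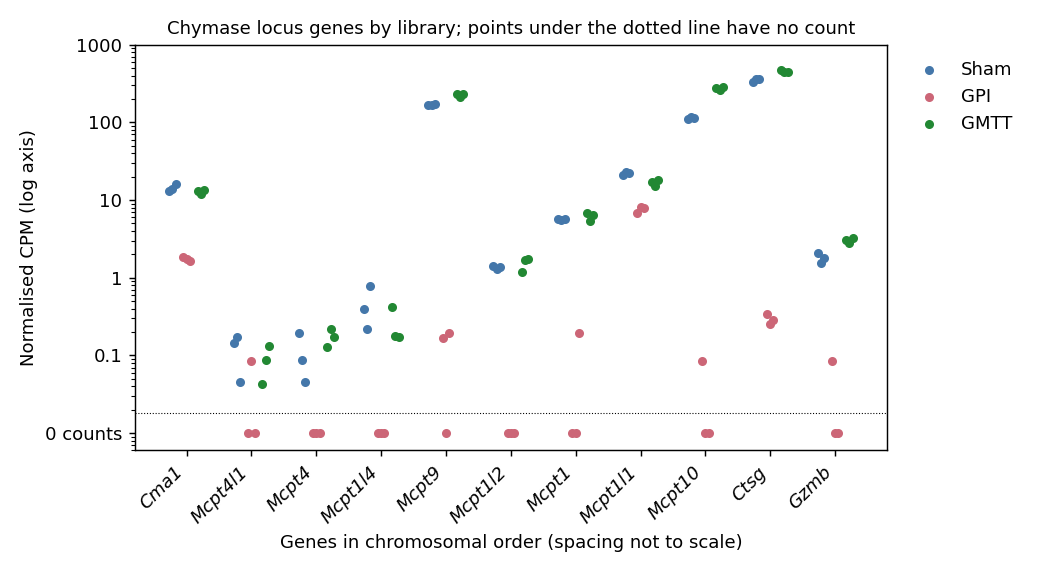
Normalised CPM (log axis) in each library for the 11 genes of the chymase cluster with at least 5 counts in all, in chromosomal order; libraries with no count are placed under the dotted line. In GPI, Mcpt1l1 stays between 6.77 and 8.23 CPM and Cma1 between 1.64 and 1.86, while Mcpt10, Mcpt9 and Ctsg lie under 1; with leukocyte scaling Mcpt1l1 and Cma1 would stand higher in GPI than in Sham.

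Other genes linked to these cells, some of them shared with or typical of other cells, were taken from 7 lists with 76 entries. Of these entries, 71 had a row and 54 were tested. In GPI against Sham, 46 of the 54 were lower and 7 higher by TMM, where 48.1% and 40.1% of all genes were. With leukocyte scaling 7 were lower and 38 higher, where 3.55% and 90% of all genes were. The median log2 change was -3.10 by TMM (-3.06 with the 2 genes at 0 in GPI set to their bound) and 1.99 with leukocyte scaling. In GMTT against GPI, 46 were higher and 6 lower by TMM (median 3.05, or 3.03 with bounds), where 45.7% and 40.2% of all genes were. With leukocyte scaling 8 were higher and 38 lower (median -2.16), where 2.93% and 90.5% of all genes were. In GMTT against Sham, 22 were higher, 10 lower and 22 not called (median 0.07). The share called in either direction was close to the 57.8% of all genes, where 29.5% were higher and 28.3% lower. By leukocyte scaling 17 were higher and 20 lower (median -0.04), where 23.1% and 38.5% of all genes were.

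**Figure D5:**
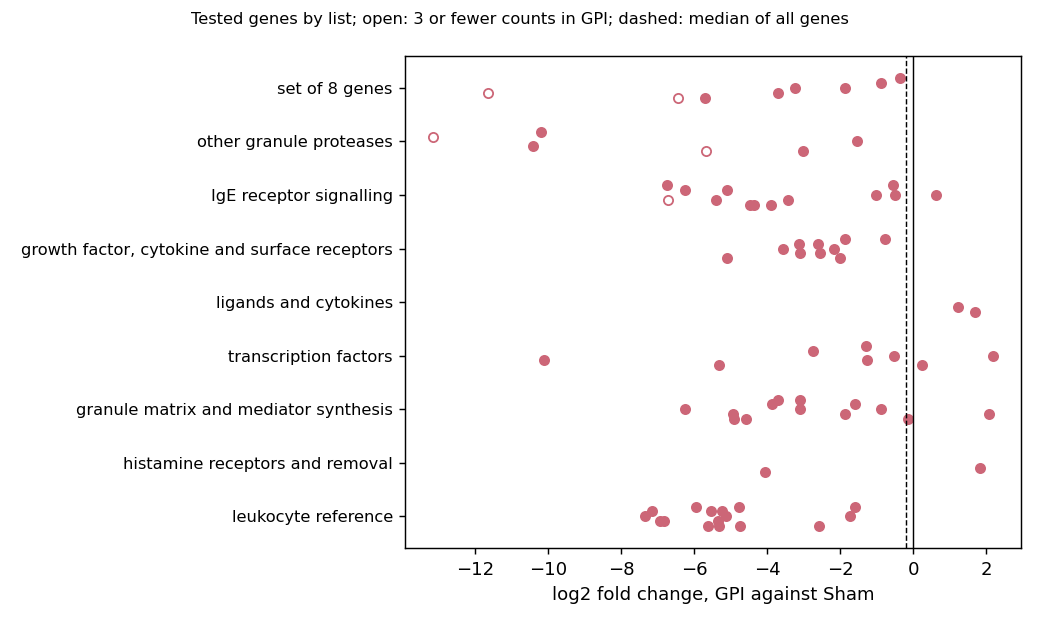
Log2 fold change of GPI against Sham on the TMM scale for the tested genes of each list (rows), with the 16 leukocyte genes at the bottom; the dashed line is the median of all genes, -0.19. Open points have 3 or fewer counts in GPI, and their fitted value depends on the offset added by the fit; with leukocyte scaling many values left of 0, such as Cpa3, Kit and Lyn, turn positive.

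All 10 tested genes for growth factor, cytokine and surface receptors were lower in GPI by TMM, against 48.1% of all genes, and 9 of the 10 were higher with leukocyte scaling, against 90%. Kit, the receptor for stem cell factor, measured 21.1, 21.3 and 21.2 CPM in Sham, 5.84, 5.12 and 4.81 in GPI and 21.5, 21.0 and 19.6 in GMTT. Its change in GPI was -2.0 (SE 0.11), or 3.10 with leukocyte scaling, and Il1rl1, the receptor for IL-33, changed by -2.55 (SE 0.14), or 2.55. Csf2rb, the shared chain of the receptors for IL-3, IL-5 and GM-CSF, measured 38.4 ± 3.44 CPM in Sham, 4.33 ± 0.891 in GPI and 78.8 ± 7.40 in GMTT. It was 1.04 higher in GMTT than in Sham (SE 0.07, adjusted p = 3.94e-13, edgeR). Of 8 genes for ligands and cytokines, 2 could be tested, Kitlg and Il33. Kitlg, which encodes stem cell factor, measured 37.0 ± 2.76, 120 ± 2.75 and 50.1 ± 3.89 CPM, and Il33 measured 6.42 ± 0.215, 14.9 ± 1.20 and 9.93 ± 0.357. In GPI against Sham they were higher by 1.70 (SE 0.06) and 1.22 (SE 0.11), the Il33 call being lost with library sizes only (0.13). Il3, the basophil growth factor gene, and Il9 had no count in any library, which allows up to 1.88e-05% of the counts in the shallowest, Sham replicate 1.

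Of 13 genes of IgE receptor signalling, 12 were lower in GPI by TMM, against 48.1% of all genes, and 1, Plcg1, was higher (named after its value was seen). With leukocyte scaling 7 of the 13 were higher and 2 lower, against 90% and 3.55% of all genes. Fcer1g, the receptor's gamma chain, measured 120 ± 5.27 CPM in Sham, 5.91 ± 0.525 in GPI and 134 ± 2.85 in GMTT. It changed by -4.34 (SE 0.08), or 0.76 with leukocyte scaling. The kinase genes Lyn and Syk changed by -3.41 (SE 0.06), or 1.69 with leukocyte scaling, and -6.25 (SE 0.08). These genes serve many blood cells besides mast cells and basophils. In GMTT against Sham, 3 of the 13 were higher, 3 lower and 7 not called, against 29.5% higher and 28.3% lower of all genes. Fcer1g was among the higher ones, at 0.16 (SE 0.05, adjusted p = 0.00651, edgeR), a call lost with leukocyte scaling (0.05) and without Sham replicate 1 (0.12, adjusted p = 0.0708, edgeR).

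Of 8 transcription factor genes, 6 were lower and 2 higher in GPI than in Sham by TMM, against 48.1% and 40.1% of all genes. With leukocyte scaling 1 was lower and 6 higher, against 3.55% and 90% of all genes. Gata1, which also drives red cell and megakaryocyte genes, measured 137 ± 4.92 CPM in Sham, 0.112 ± 0.128 in GPI and 82.2 ± 5.47 in GMTT. Gata2, also expressed in vessel lining, measured 21.3, 20.6 and 21.5 CPM in Sham and 22, 27.6 and 25.8 in GPI. The Gata2 change of 0.25 (SE 0.08, adjusted p = 0.00613, edgeR) turned to -0.84 with library sizes only and was lost without GPI replicate 2 (0.17, adjusted p = 0.0799, edgeR). Mitf, a factor of mast cells, osteoclasts and other cells that was chosen after its values were seen, rose from 8.44 ± 0.612 to 38.1 ± 2.42 CPM in GPI and stood at 10.9 ± 0.273 in GMTT. Spi1 and Cebpa, factors of the myeloid lineages, changed in GPI by -5.33 (SE 0.11, not called with leukocyte scaling) and -2.75 (SE 0.10, 2.35 with leukocyte scaling).

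Of 13 genes for granule matrix and mediator synthesis, 11 were lower and 1 higher in GPI libraries by TMM, against 48.1% and 40.1% of all genes. With leukocyte scaling 1 was lower and 10 higher, against 3.55% and 90% of all genes. Srgn, which encodes the proteoglycan serglycin that packs granule proteases, measured 740 ± 36.3 CPM in Sham, 30.9 ± 1.82 in GPI and 957 ± 20.0 in GMTT. It was lower in GPI by TMM (-4.58, SE 0.06) and 0.52 higher with leukocyte scaling. In GMTT against Sham it was 0.37 higher (SE 0.04, adjusted p = 1.64e-08, edgeR). Alox5ap, needed for leukotriene synthesis, measured 60.5 ± 1.83, 1.99 ± 0.0547 and 72.8 ± 4.65 CPM, and Stxbp2, of granule release, 86.9 ± 6.74, 1.14 ± 0.340 and 97.5 ± 1.22. Of the histamine receptor and removal genes, 2 of 7 could be tested. The receptor gene Hrh3 measured 9.40 ± 0.933 CPM in Sham, 0.553 ± 0.178 in GPI and 10.3 ± 1.33 with GMTT. The transporter gene Slc22a3 measured 2.41 ± 0.199, 8.60 ± 1.16 and 3.40 ± 0.522. Hnmt and Aoc1, which encode the enzymes that break histamine down, had no count in any library.

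Likeness of pattern was measured as the root mean square distance between log2 profiles over the 9 libraries, each centred on its own mean, from the median profile of the 8 genes. The nearest genes outside the lists were Ripor2 at 0.0797, Ccdc125 at 0.0888, Slc2a3 at 0.0916 and Dock11 at 0.0963 log2 units, followed by Casp1, Nin, Itga4 and Ggh up to 0.113. Among the 8 genes, Fcer1a was nearest at 0.201 and Mcpt10 farthest at 2.71, so the median profile lies closer to these outside genes than to any of the 8. The libraries share their groups, and the distance mainly reads the size of the step between GPI and the other groups.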

How the data were processed

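Gene-level values of 9 libraries were used: read counts, deposited as whole numbers, and FPKM, deposited by the authors in a table of its own. TRIzol RNA went through poly(A) selection into stranded paired-end libraries, per the labels' protocols. Gene models are those of mRatBN7.2, as the submitters' processing notes say. The sources used here do not give the aligner, the counting tool or its strand setting. The deposited FPKM equals count over gene length and 1 constant per library, which averaged 1.32 times the library total for Sham, 0.604 for GPI and 1.30 for GMTT. These averages lie close to the mean TMM factors of 1.28, 0.602 and 1.29, so FPKM levels and tests on them keep nearly the TMM scale.

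The main test on counts was the robust quasi-likelihood F test of edgeR 4.0.16 in R 4.3.3, 2-sided, with all 9 libraries in 1 model of 3 groups, with TMM scaling (mean factors 1.28, 0.602 and 1.29 in Sham, GPI and GMTT) and the default filter at a minimum count of 10. Adjustment was over all 15936 genes tested, with a threshold of 0.05. The SE is the log2 fold change over the root of F. Intervals have a level of 95%, and the floor is 3 counts over a group. Alternatives used limma 3.58.1 and DESeq2 1.42.0; leukocyte scaling sets library factors from the mean log2 count of 16 leukocyte genes. Counts of the other lists under these scalings were added after the data were seen. Exact permutation tests used scipy 1.17.1 and figures matplotlib 3.10.9.

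The 8 genes and all lists were chosen with earlier results of these data known. Genes named outside the 8 were mainly the 3 with the smallest p of each list and 8 genes set by name. The latter were Kit, Gata2, Fcer1g, Il1rl1, Prss34, Cma1, Ctsg and Srgn. The rule also took the rows of the chymase cluster and the 8 genes most alike in pattern with log2 CPM averaging 3 or more. For these an offset of 0.5 CPM was added before logs. Some genes under this rule are left out of the text. Plcg1, Mitf, Nkg7, Il5ra, Il3, Il9, Hnmt and Aoc1 were named outside this rule. Libraries of a group differed beyond counting noise (chi-square per degree of freedom 1.99 to 5.15).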

Additional observations from a re-analysis of the deposited data

How the results depend on the processing

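Over the 8 genes, 3 comparisons and all alternatives there were 447 values, of which 426 kept direction and side of the threshold, 5 lost a call, 6 gained one and 10 reversed. Scaling to 16 leukocyte genes moved the median of all genes from -0.19 to 4.91 (log2) in GPI against Sham, from 0.12 to -5.09 in GMTT against GPI and from 0.00 to -0.11 in GMTT against Sham, so it reads only whether a gene changed more than those genes. With it, 5 of the 8 genes were higher and 1 lower in GPI against Sham, and 1 higher and 5 lower in GMTT against GPI. The reversed log2 changes in these comparisons were 3.25 and -4.18 for Cpa3, 4.21 and -4.46 for Tpsab1, 4.73 and -4.88 for Tpsb2, 1.36 and -1.49 for Fcer1a, 1.87 and -1.24 for Hdc, 3.10 and -3.24 for Kit, 0.76 and -0.71 for Fcer1g, 2.55 and -2.77 for Il1rl1, 2.08 and -2.34 for Cma1, 0.52 and -0.26 for Srgn, 3.56 and -4.07 for Mcpt1l1, 1.69 and -1.77 for Lyn, 1.97 and -1.04 for Csf2rb, 3.23 and -3.14 for Csf2ra, 2.35 and -2.15 for Cebpa, 0.18 and -0.02 for Alox5ap, and 1.03 and -1.0 for Hrh3. With library sizes only, the median of all genes was -1.28, 1.22 and 0.01, and Gata2 turned to -0.84 and 0.93 and Il33 in GMTT against GPI to 0.51. The filter of at least 5 CPM in 3 libraries kept 5 of the 8 genes, all called in the first and second comparisons. Without single libraries, genes called higher in GMTT against GPI ranged from 6 to 7 and the other counts did not move. A replicate block left 7 genes lower in GPI against Sham, 7 higher in GMTT against GPI, and 2 higher and 1 lower in GMTT against Sham. The labels share only a number, and deviations of same-numbered libraries correlated at -0.231 to 0.0908, so the numbers were not taken as pairs. Among the 8 genes, depth limits Mcpt10, Mcpt1 and Fcer1a in GPI most, at 1, 2 and 9 counts over 3 libraries.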
